A study of Mus musculus with 45 samples.

Results

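The potassium channel genes are the protein-coding genes of the deposited table whose mouse symbol starts with Kcn, which covers pore-forming subunits and the auxiliary subunits named with them. They were chosen by symbol and level alone: the mean had to reach 10 normalized counts in at least 1 brain region, with Kcnj13 left out by the rule. Of the 18135 genes in the table, 79 are members, and 17401 genes reached the same level. A further 2 Kcn genes of the table (Kcnn4 and Kcnrg) stayed below it. The members fall into 15 families, and 75 of them reached the level in all 3 regions, 3 (Kcne2, Kcnh8 and Kcnj5) in 2 regions and Kcnq1 in 1. Kcne2 reached it in the striatum through 1 library, Shank3-HT replicate 5, and its mean over the other 14 striatal samples was 2.13.

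RNA was sequenced from the prefrontal cortex (cortex hereafter), hippocampus and striatum of male mice of the C57BL/6J strain at 13 weeks of age. There were 3 genotypes: wild type (WT), mice with 1 mutant copy of Shank3 (Shank3-HT) and mice with both copies mutant (Shank3-HM, named knock-out in the labels). Each genotype was sampled 5 times in each region, which makes 45 samples. The mutant allele is a germline deletion of exons 14 to 16 of Shank3, which encodes a scaffold protein of excitatory synapses, so it is carried by every cell type and no Cre driver is involved. The 3 regions may have come from the same mice, but the labels do not say which samples share a mouse, and litters are not given. The p values measure the spread between these samples. Because the samples are bulk tissue, fewer cells of a type and less RNA per cell cannot be told apart.

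Potassium channels let potassium ions leave the cell, which returns the membrane to its resting voltage after a spike and sets how readily a neuron fires. Voltage-gated (Kv) channels open on depolarization, inward rectifiers (Kir) and 2-pore-domain (K2P) channels act near rest, and BK, SK and Slack channels open with internal calcium or sodium. Spiny projection neurons, the main cells of the striatum, are known for strong inward rectification and slowly inactivating Kv1 current at subthreshold voltages, whereas fast-spiking interneurons rely on Kv3 channels.

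The pore of these channels is lined by a short signature, which the sequences of the members make visible. In the coding sequences of the GENCODE M21 transcripts (GRCm38), codons for threonine, any residue, glycine, tyrosine or phenylalanine, and glycine were found in frame in 55 of the 79 members, against 192 of 14856 genes with a complete coding sequence (1.29%). With serine in the first position (found in 267 genes, 1.8%), another 11 members matched, namely 7 of the 8 EAG genes, the 3 SK genes and Kcnj14. The 13 members with neither were the auxiliary subunits: 3 Kvbeta, 3 KCNE, 4 KChIP and 3 BK beta genes. A match describes letters only. Sequences are shown for examples from several families among the genes described below, 5′ to 3′ on the coding strand, with the 15 bases of the signature in capitals.
Kcna5: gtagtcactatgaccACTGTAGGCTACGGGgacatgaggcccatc
Kcna4: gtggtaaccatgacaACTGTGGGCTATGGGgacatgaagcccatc
Kcnc4: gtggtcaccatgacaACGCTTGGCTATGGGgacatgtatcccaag
Kcnh4: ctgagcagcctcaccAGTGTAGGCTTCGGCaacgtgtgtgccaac
Kcnn3: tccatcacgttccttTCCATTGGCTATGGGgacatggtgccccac
Kcnt1: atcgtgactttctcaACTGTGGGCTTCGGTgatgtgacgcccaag
Kcnj2: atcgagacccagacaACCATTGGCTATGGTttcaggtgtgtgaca
Kcnj6: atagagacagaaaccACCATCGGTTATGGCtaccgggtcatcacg
Kcnk2 first pore: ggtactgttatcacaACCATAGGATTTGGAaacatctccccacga
Kcnk2 second pore: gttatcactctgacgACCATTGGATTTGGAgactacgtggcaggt
Kcnk4 first pore: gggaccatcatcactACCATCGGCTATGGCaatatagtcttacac
Kcnk4 second pore: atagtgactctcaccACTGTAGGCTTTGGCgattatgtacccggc
The first 3 are voltage-gated pore subunits, and Kcnh4 and Kcnn3 show the serine form. Kcnk2 and Kcnk4 are among the 8 of 10 K2P genes that matched at 2 places, and a double pore is the trait this family is named for.

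The labels were checked on Shank3 and on marker genes. Shank3 was at 12189, 12644, 12706, 12739.8 and 11309 normalized counts in the WT striatum, at 9243, 9323, 8355, 8746 and 7959 in Shank3-HT and at 6061, 5883, 6242, 5922 and 4569 in Shank3-HM, and the 3 genotypes did not overlap in any region. Drd1, a dopamine receptor of spiny projection neurons, ranged from 7318 to 10097 in the striatum. Prox1, a marker of dentate granule cells, ranged from 2848 to 4287 in the hippocampus and from 287 to 744 elsewhere. One library stood apart from its label: the library labelled cortex Shank3-HM replicate 2 held Drd1 at 2483 against 119 to 225 in the other cortex samples, and the summed level of the 10 spiny projection neuron markers was 55623 there against at most 9919 in the other Shank3-HM cortex samples. Striatum Shank3-HT replicate 5 held Ttr, a defining gene of the choroid plexus, at 62259, against at most 840 in the other striatal samples. For the members, genotype calls, counts at an unadjusted p under 0.05, counts by direction and median differences were also computed without these 2 libraries. Other results on mutant mice, such as non-overlap counts, intervals and 2-fold region calls, are given with all samples unless stated.

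Of the 79 potassium channel genes, 59 differed by 2-fold between some pair of WT regions, and none was called between genotypes. The WT striatum held Kcna5, Kcna4, Kcnab1, Kcnh4, Kcnj2, Kcnk2 and Kcnn3 at 2-fold or more above both other regions, and 17 members at 2-fold or more below both. These 17 included the Kv3 genes Kcnc2 and Kcnc4 and the GIRK genes Kcnj3, Kcnj6 and Kcnj9, but not the low GIRK gene Kcnj5, whose mean was highest in the striatum. The share of all genes that were 2-fold above or below both other regions is not given here, so these counts are not read as an excess. A gene was called when the limma test on log2(value + 1) gave an adjusted p value under 0.05 (Benjamini-Hochberg over all genes tested) and the difference was at least 2-fold on that scale. Of the 79 members, 23 (29.1%) were called between cortex and hippocampus, 43 (54.4%) between cortex and striatum and 33 (41.8%) between hippocampus and striatum. Over all 17401 genes tested, 12.3%, 18.7% and 17.3% were called in the same comparisons. With only genes at a mean of at least 100, the counts were 19, 38 and 32 of 68 members, beside 8.33%, 14.3% and 14.1% of 13036 genes. Without the 2-fold rule they were 58, 71 and 66 of 79, beside 46.4%, 59% and 55.7% of all genes.

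The 59 members make 74.7%, beside 27.2% of the genes tested, and 20 were in no pair. The mean was highest in the cortex for 40 members, in the striatum for 28 and in the hippocampus for 11, and lowest in the striatum for 35. Cortex exceeded striatum in 30 of the 43 called members (9.96% of all genes were called in this direction) and fell below it in 13 (8.7%). Cortex exceeded hippocampus in 18 of 23 (5.9% of all genes) and fell below it in 5 (6.38%). Hippocampus exceeded striatum in 21 of 33 (9.6%) and fell below it in 12 (7.68%). The median log2 difference over the 79 members was 0.47 for cortex minus hippocampus and 0.57 for cortex minus striatum, where the median over all genes was -0.01 in both, and -0.06 for hippocampus minus striatum, where it was 0.00. The mutant mice give the same comparisons in other samples. Of the 23, 43 and 33 members called in WT samples, 18, 41 and 31 were also called in the same direction in Shank3-HT samples, where 11.4%, 17.9% and 16.3% of all genes were called. In Shank3-HM samples 19, 37 and 33 were, where 10.6%, 17.6% and 17% of all genes were called.

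**Figure D1:**
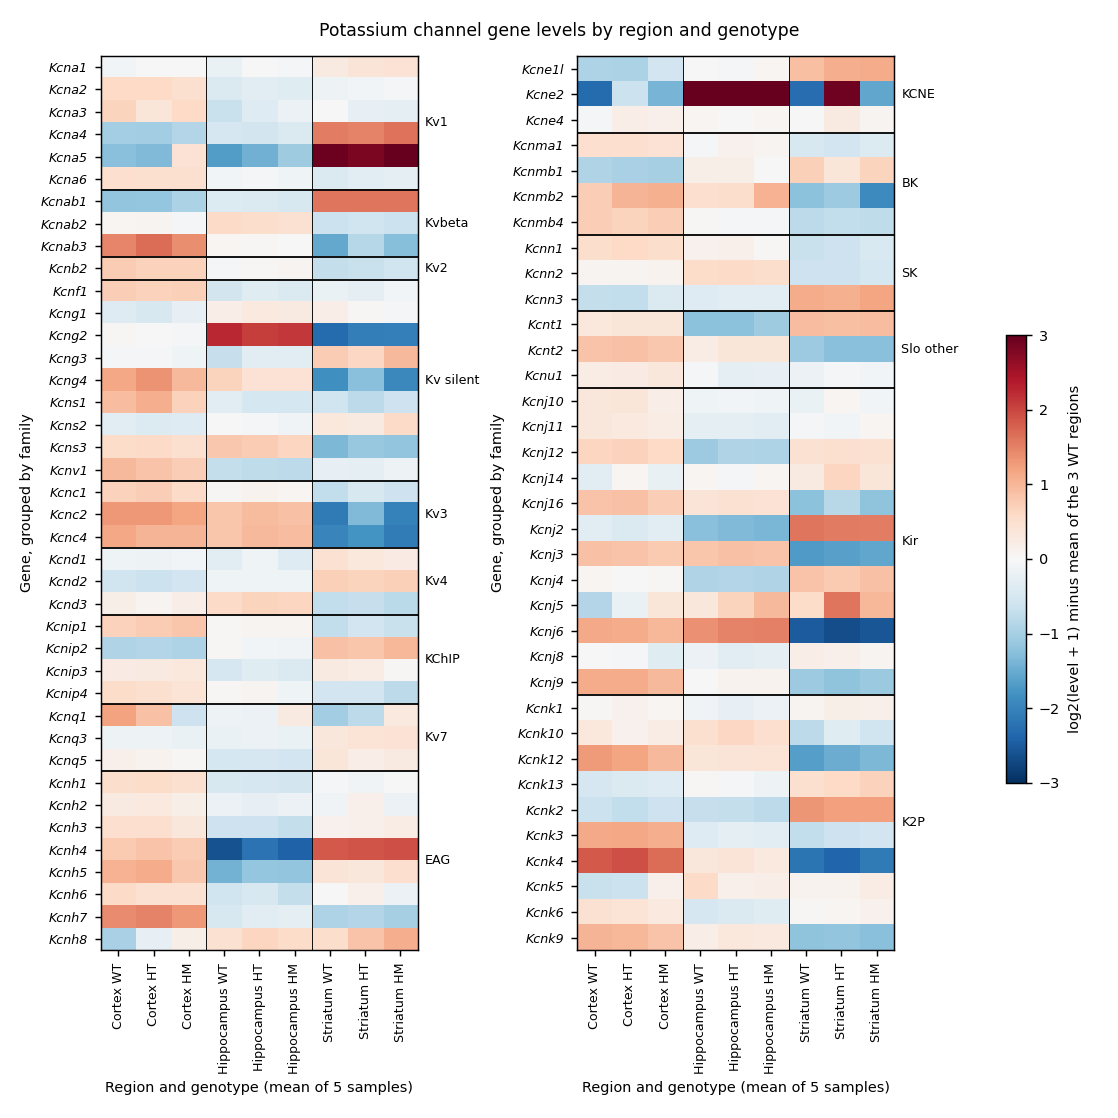
Mean level of the potassium channel genes shown (rows, grouped by family) in the 9 groups of 5 samples (columns), as log2(level + 1) minus the mean of the 3 WT regions (color, cut at -3 and 3). Columns of 1 region resemble each other across genotypes, and the 7 genes that are 2-fold above both other regions in the striatum, such as Kcna5 and Kcnab1, stand out in red in its 3 columns. Kcna5 in cortex HM and Kcne2 in striatum HT each rest on 1 library named in the text.

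Kv1 genes encode low-threshold channels of axons and dendrites. Kcna5 (chr6:126532551-126535412, a gene of 1 exon on GRCm38), which encodes Kv1.5, had a striatal level of 917, 952, 1027, 1017 and 797 in the 5 WT samples. Its WT levels were 64.7, 43.4, 50.3, 45.6 and 50.5 in the cortex and 44.05, 37.3, 40.7, 40.2 and 24.8 in the hippocampus. Every striatal value was above every value of the other regions, by 18.5-fold over the cortex (log2 difference, cortex minus striatum, -4.19 ± 0.36 SE, adjusted p = 1.4e-13) and 25.2-fold over the hippocampus. The 4 cortex Shank3-HM samples other than replicate 2 held it at 47.2 to 75.1, and replicate 2, the library with spiny projection neuron markers, at 606. Kcna4 (chr2:107290639-107298502), which encodes the inactivating Kv1.4, was at 2556, 2357, 2344, 2292 and 2032 in the WT striatum. It was at 399, 373, 435, 341 and 432 in the cortex and 513, 723, 575, 477 and 549 in the hippocampus, so that the 3 regions did not overlap, and the striatal mean was 5.85-fold the cortical one (adjusted p = 2.9e-20). Kcna2, which had the highest level per kb of this family, went the other way, with a cortical mean of 10989 ± 542 (SD, n = 5) against 5353 ± 709.9 in the hippocampus and 6576 ± 371 in the striatum. Kcna3 was 2.56-fold higher in cortex than in hippocampus (adjusted p = 2.9e-08). Kcna1 and Kcna6 were in no pair of regions past 2-fold.

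Kvbeta subunits bind Kv1 channels from inside the cell and, as Kvbeta1, close them quickly. The 3 genes went 3 ways. Kcnab1 (chr3:65109384-65378223) was at 14729, 13727, 14839, 13553 and 11003 in the WT striatum, at 2072, 1952, 2070.5, 1917 and 1877 in the cortex and at 3376, 3411, 3610.5, 3011 and 3326 in the hippocampus. No 2 regions overlapped, and the striatum was 6.86-fold above the cortex (log2 difference, cortex minus striatum, -2.77 ± 0.10 SE, adjusted p = 1.9e-24). Kcnab3 (chr11:69326258-69333042) ran opposite, with 1959.7, 1492, 2067, 1877 and 1505 in the cortex, 746, 702, 639, 570.5 and 678 in hippocampal samples and 254, 217, 194, 183 and 259 in striatal samples, with cortex 8.04-fold above striatum (adjusted p = 5e-19). Kcnab2 was highest in the hippocampus (18214 ± 954, SD, n = 5), where it was 2.33-fold above the striatum.

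Kv3 genes encode the channels that let neurons fire at high rates. Kcnc1, Kcnc2 and Kcnc4 were called higher in cortex than in striatum, and Kcnc2 and Kcnc4 also higher in hippocampus than in striatum. Kcnc4 (chr3:107438303-107459552) was at 2264, 2217, 2059, 2078 and 2013 in the WT cortex and 1822, 1553, 1523, 1749.6 and 1778 in the hippocampus. In the striatum it was at 206, 149, 190.2, 179 and 483, below every other value, with replicate 5 apart from the other 4. The cortex was 8.81-fold above the striatum (log2 difference 3.27 ± 0.19 SE, adjusted p = 1.4e-18). Kcnc2 (chr10:112271121-112467024), which encodes Kv3.2, was at 3297, 3174, 3353, 3601 and 3688 in the cortex, 2399, 2504, 2535, 2332 and 2679 in hippocampal samples and 249, 203, 267, 254 and 622 in striatal samples, again with replicate 5 highest. Striatum WT replicate 5 also held Slc17a7, the vesicular glutamate transporter of cortical projection neurons, at 7801 against 940 to 2137 in the other 4, and the part of this in the Kv3 values was not tested. Kcnc1 was 2.704-fold higher in cortex than in striatum (adjusted p = 3.3e-20).

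The 9 silent Kv genes encode subunits that form no channel alone and modify Kv2 channels, the delayed rectifiers of cell bodies and dendrites. Kcng2 was a hippocampal gene, at 582, 797, 561, 563 and 482 there, 100.3, 140.3, 132, 144 and 117 in the cortex and 27.03, 35.7, 12.8, 13.03 and 30.9 in the striatum. This is 24.99-fold above the striatum (adjusted p = 1.3e-21) and 4.72-fold above the cortex. Kcnv1 was at 2916, 3251, 3449, 3182 and 3348 in the cortex, 941, 994, 1128, 899.8 and 1053 in hippocampal samples and 1500.1, 1278, 1320.3, 1356 and 1509.7 in striatal samples. Kcnf1, the silent gene with the highest level per kb, was 2.44-fold higher in cortex than in hippocampus. Kcng4 was 8.16-fold and Kcns3 3.79-fold higher in cortex than in striatum.

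Kv4 channels carry the dendritic A-type current, and KChIP subunits bind calcium and bring them to the surface. Kcnd2, which encodes Kv4.2, was at 6326, 6464, 5883, 5470.3 and 4658 in the WT striatum, 3114, 3515, 3479, 2816 and 3074 in the hippocampus and 2485, 2334, 2295, 2301 and 2086 in the cortex. Its 3 regions did not overlap, and the striatum was 2.504-fold above the cortex (adjusted p = 1.6e-19). Kcnip2, the KChIP gene with the highest level per kb, had the same order, at 9441, 8687, 8771, 9254 and 8056 in the striatum, 5799.9, 4494, 5033, 4560.2 and 4532 in the hippocampus and 2568, 1936, 2928, 2726 and 2544 in the cortex (3.48-fold, striatum over cortex, adjusted p = 5.6e-20). Kcnd3 had another order and was 2.496-fold higher in hippocampus than in striatum, but an antisense gene, Kcnd3os, overlaps it. Kcnip1 and Kcnip4 were higher in cortex than in striatum, by 2.702-fold and 2.19-fold.

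Kv7 channels carry the M-current that restrains repeated firing. Kcnq3 and Kcnq5 were in no pair of regions past 2-fold. Kcnq1, a member through the cortex alone, had WT cortical values of 5.26, 25.8, 8.55, 0.873 and 53.7, of which replicates 2 and 5 were high. The antisense transcript Kcnq1ot1 overlaps it.

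EAG-family genes encode channels that open slowly and shape resting voltage and spike threshold, and 7 of the 8 differed by 2-fold between cortex and hippocampus. Kcnh4 (chr11:100740376-100759942), which encodes Elk1, was at 1784, 1959.6, 1911, 1854 and 1490.1 in the WT striatum, 820.1, 818, 1014, 874 and 772 in the cortex and only 106, 81.6, 77.8, 73.9 and 67.2 in the hippocampus. The striatum was 22.1-fold above the hippocampus (log2 difference, hippocampus minus striatum, -4.46 ± 0.14 SE, adjusted p = 2e-27) and the cortex 10.6-fold above it. Kcnh5 was at 425, 478, 508, 559.8 and 424 in the cortex, 305, 332, 342, 281 and 245 in the striatum and 48.3, 114, 83.7, 70.9 and 111 in the hippocampus, with no overlap between any 2 regions. Kcnh7 (chr2:62693414-63184287), which encodes Erg3, was a cortical gene, at 5932, 6104, 6395, 6263 and 5294 there, 1212, 1798, 1855, 1478 and 1665 in the hippocampus and 1056, 1069.8, 1206, 1121 and 1414 in the striatum (5.11-fold, cortex over striatum, adjusted p = 1.2e-19). Kcnh3, the EAG gene with the highest level per kb, was 2.18-fold higher in cortex than in hippocampus. Kcnh8 alone was called higher in the hippocampus, at low levels (4.48 ± 2.46 in the cortex, 13.8 ± 3.58 in the hippocampus, SD, n = 5).

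Inward rectifiers of the Kir2 group hold neurons near the potassium equilibrium voltage. Kcnj2 (chr11:111066164-111076821), which encodes Kir2.1, was at 2822, 2178, 1748, 2129.9 and 1909 in the WT striatum, 498, 635, 609, 565 and 521 in the cortex and 239, 447, 256, 304 and 236 in the hippocampus. The striatum was 7.28-fold above the hippocampus (adjusted p = 3.6e-21) and 3.82-fold above the cortex. Kcnj4, which encodes Kir2.3 and had the highest level per kb of the Kir genes, was at 4458, 4568, 4687, 4636 and 3879, 2721, 2542, 2745, 2396 and 2413 and 1737, 1252, 1297, 1161 and 1155 in striatum, cortex and hippocampus. Its regions did not overlap, but the striatal excess over the cortex, 1.73-fold, was under 2. Kcnj12, which encodes Kir2.2, was at 294, 336, 331, 339 and 369 in the cortex, 328, 329, 283, 256 and 278 in the striatum and 90.8, 93.8, 105, 98.9 and 108 in the hippocampus, so only the hippocampus stood apart.

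GIRK channels are inward rectifiers opened by G protein-coupled receptors. Kcnj6 (chr16:94748636-94997701), which encodes GIRK2, was at 649, 1324, 1305, 1114 and 1136 in the WT hippocampus, 786, 979, 976, 1061 and 875 in the cortex and 67.2, 26.2, 61.2, 49.3 and 169.7 in the striatum. The hippocampal mean was 14.8-fold and the cortical mean 12.5-fold the striatal one (adjusted p = 2.6e-15 and 1.4e-14), and cortex and hippocampus overlapped. Kcnj3 (GIRK1) was 5.98-fold and Kcnj9 (GIRK3) 4.63-fold higher in cortex than in striatum. Kcnj5 (GIRK4) was far lower, with WT means of 3.76 ± 2.99, 10.2 ± 4.07 and 11.9 ± 5.37 in cortex, hippocampus and striatum. Kcnj10, the Kir4.1 channel of astrocytes, was at 7148 ± 642 in the cortex, 5129.6 ± 737 in hippocampal samples and 4907 ± 306 in striatal samples and was in no pair past 2-fold, whereas Kcnj16, its partner Kir5.1, was 4.28-fold higher in cortex than in striatum.

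K2P channels carry the background leak current. Kcnk2 (chr1:189207930-189402273), the mechanosensitive TREK-1, was at 4786, 4368, 4352, 4278 and 3567 in the WT striatum, 1141, 1063, 1028, 1108 and 1169.6 in the cortex and 1109.9, 1122, 1089, 969 and 1049 in the hippocampus. It was 3.88-fold above the cortex (adjusted p = 7.4e-21) and cortex and hippocampus overlapped. Its relative Kcnk4 (TRAAK, chr19:6923966-6934515) was lowest in the striatum, where Kcnk2 was highest, at 800.1, 689, 789, 865 and 702 in the cortex, 292, 237, 307, 248 and 267 in hippocampal samples and 48.00, 37.5, 44.8, 26.2 and 74.8 in striatal samples. The cortex was 16.6-fold above the striatum (log2 difference 4.101 ± 0.25 SE, adjusted p = 8.2e-18). The acid-sensitive TASK genes Kcnk3 and Kcnk9 were 3.67-fold and 4.66-fold higher in cortex than in striatum. Kcnk12 (THIK-2) was at 112, 159, 172, 172 and 114 in the cortex, 76.9, 95.6, 63.7, 93.7 and 51.3 in hippocampal samples and 18.9, 21.6, 9.11, 9.58 and 31.6 in striatal samples. Kcnk1 (TWIK-1) was even, with means of 2529 ± 192, 2289 ± 138 and 2633 ± 152 (SD, n = 5) in cortex, hippocampus and striatum.

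Among calcium- and sodium-activated channels, the SK gene Kcnn3 was at 1921, 2096, 2286, 2519 and 2097 in the WT striatum, 513, 722, 588, 607 and 667 in the cortex and 492, 939, 829, 823 and 781 in the hippocampus. It was 3.53-fold above the cortex (adjusted p = 1.3e-13), whereas Kcnn1 was 2.296-fold higher in cortex than in striatum and Kcnn2 2.24-fold higher in hippocampus than in striatum. Kcnt1 (chr2:25863734-25918273), the sodium-activated Slack, was at 8547, 8129, 8479, 8380.1 and 7769 in the striatum, 5373, 5293, 5439, 5406 and 5634 in the cortex and 1821, 1740.0, 1516, 2316 and 1935 in the hippocampus. No 2 regions overlapped, and the striatum was 4.43-fold above the hippocampus (adjusted p = 1.4e-25). Its relative Kcnt2 was 3.86-fold higher in cortex than in striatum. The BK pore gene Kcnma1 was 2.01-fold and the neuronal BK beta subunit Kcnmb4 2.89-fold higher in cortex than in striatum, while Kcnmb1 was at 22.9 ± 7.36 in the cortex and 72.2 ± 14.5 in the striatum (SD, n = 5).

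**Figure D2:**
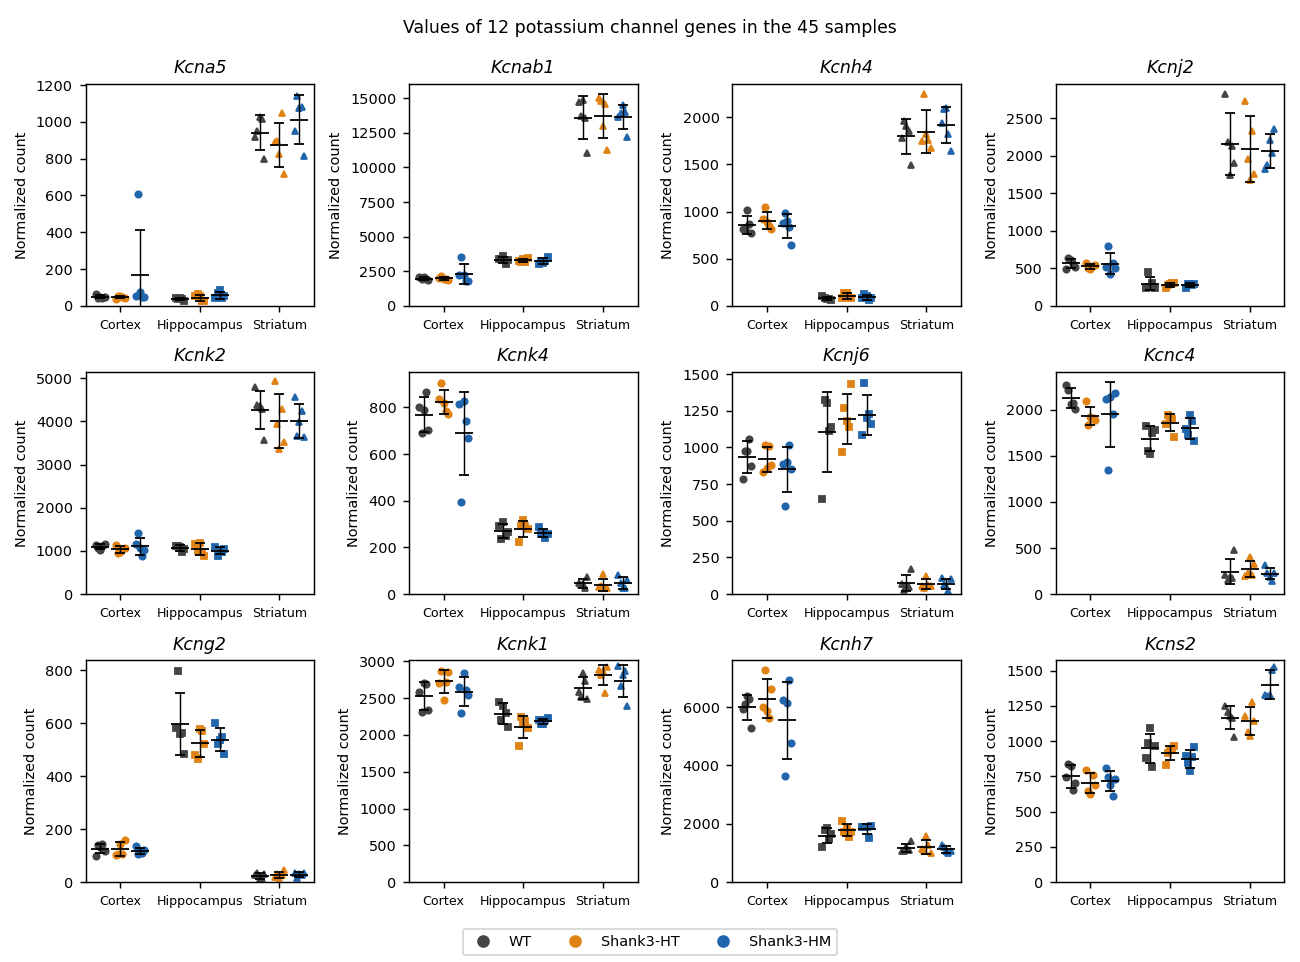
Normalized count of 12 potassium channel genes in each of the 45 samples (points, colored by genotype), with the mean and SD of each group of 5 in black; each axis starts at 0. The 15 striatal samples lie above all others for Kcnab1, Kcnh4, Kcnj2 and Kcnk2 and below all others for Kcnk4, Kcnj6, Kcnc4 and Kcng2; the cortex HM sample at 606 for Kcna5 is replicate 2.

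Levels between genes can be compared only per length, as normalized counts per kb of the longest protein-coding transcript, averaged over the 3 WT regions. On this scale the auxiliary subunits Kcnab2 (3288), Kcnip2 (2264) and Kcnab1 (1941) were above the Kir, K2P, EAG and Slo genes. The highest Kir gene was Kcnj4 (1290.2), the highest K2P gene Kcnk1 (1111), the highest EAG gene Kcnh3 (1084) and the highest Slo gene other than BK Kcnt1 (882). Other families were led by Kcnmb4 (825), Kcnd2 (729), Kcna2 (659.6), Kcnf1 (513), Kcnn3 (413) and, far lower, Kcne1l (58.4). With the mean transcript length in place of the longest, the leading BK gene became Kcnma1 (2188) and the leading SK gene Kcnn2 (504).

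**Figure D3:**
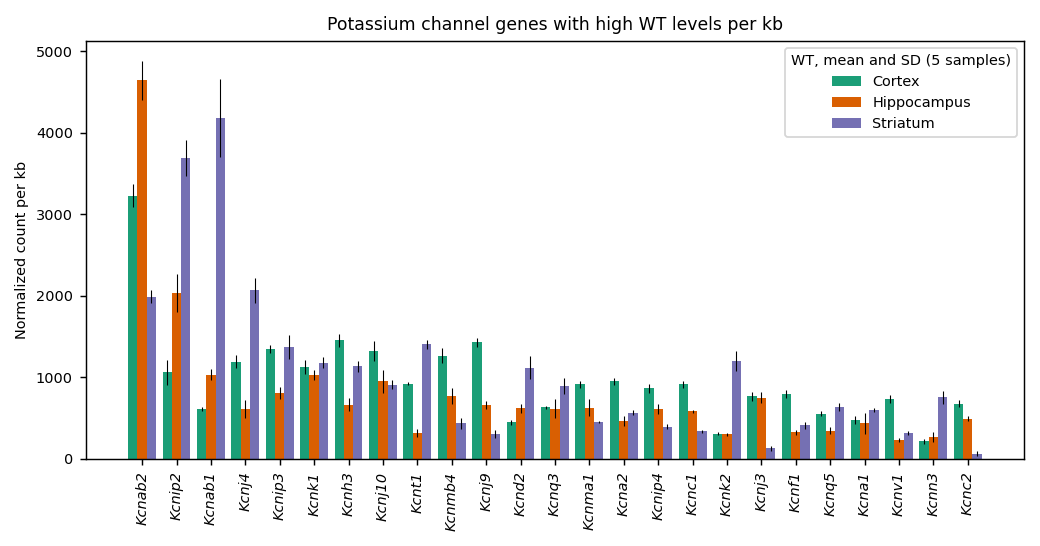
Level per kb of 25 potassium channel genes with high WT levels (normalized count per kb of the longest transcript; bars, mean of 5 WT samples; lines, SD), by region. Kcnab2 is tallest in the hippocampus and Kcnab1, Kcnip2 and Kcnj4 in the striatum, and the 3 bars of Kcnk1 are close to each other.

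Kcne2 needs a note of its own. KCNE subunits are single-pass partners of Kv channels, and Kcne2 is known in the choroid plexus. In the WT hippocampus it was at 43.6, 11.3, 220.5, 709 and 244, where Ttr was at 5719, 2097, 31385, 113040.0 and 32301 in the same order of samples. The order of the 5 samples was the same for both genes. In Striatum Shank3-HT it was at 0, 10.7, 0, 1.01 and 374, and the last of these is the sample in which Ttr was at 62259. It was called 6.102 ± 1.13 (SE) higher on the log2 scale in WT hippocampus than in WT striatum (adjusted p = 1.3e-05), but the striatal values were 0, 0, 1.93, 3.73 and 0, and the size depends on the added constant, from 3.63 to 8.23 over the alternatives. All 14 choroid plexus markers were in the table, and their summed level ranged from 9195 to 188384 in the WT hippocampus and from 4961 to 6986 in the WT striatum. How much of the regional difference of Kcne2 goes with this tissue was not tested.

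**Figure D4:**
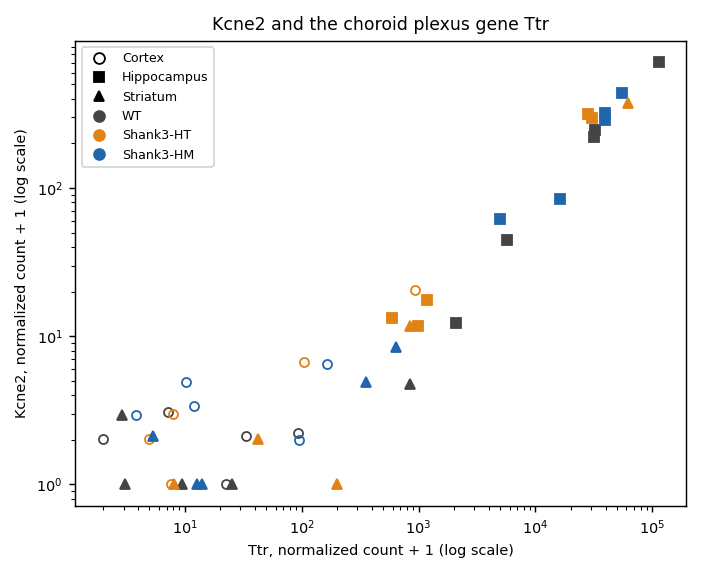
Kcne2 against Ttr in the 45 samples, both as normalized count + 1 on log axes; shape marks the region and color the genotype. Kcne2 is above 40 only in samples with Ttr at 5006 or more, among them 1 striatal sample, Shank3-HT replicate 5, with Kcne2 at 374.

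The comparison of mutant with WT mice asks whether loss of Shank3 changes potassium channel expression within a region. No member was called (limma, adjusted p under 0.05) in Shank3-HT or Shank3-HM mice in any of the 3 regions, with or without the 2 libraries that stood apart. Over all genes, the same test called 0 and 2 in the cortex of Shank3-HT and Shank3-HM mice (0% and 0.0121%), 1 and 1 in the hippocampus (0.00603% in both) and 1 and 30 in the striatum (0.00607% and 0.182%). At an unadjusted p under 0.05, the members numbered 2 and 3 of 76 for cortex, 5 and 5 of 78 for hippocampus and 8 and 6 of 78 for striatum. The members not counted here stayed under a mean of 10 in that region. These shares, 2.63%, 3.95%, 6.41%, 6.41%, 10.3% and 7.69%, stand beside 2.68%, 5.49%, 5.26%, 4.73%, 7.43% and 7.43% of all genes in the same order. Without the 2 libraries that stood apart, the counts were 3 and 2 for cortex (3.55% and 5.14% of all genes) and 5 and 5 for striatum (5.75% and 7.58%), with those for hippocampus as before. Mutant and WT values did not overlap for 0 and 0 members in the cortex, 1 and 0 in hippocampal samples and 1 and 1 in the striatum, beside 0.63%, 0.8%, 0.797%, 0.736%, 0.971% and 1.86% of all genes. Both mutant genotypes were set against the same WT samples. Shank3 itself was not called in the Shank3-HT cortex, with a log2 difference of -0.38 ± 0.07 (SE; limma, adjusted p = 0.288) and no overlap with WT, so a change of that size in a member could have been missed there. The paper, with DESeq2 at the same threshold, reports Shank3 as downregulated in every region of both mutant genotypes. The test used here was thus the less sensitive one for Shank3 in that comparison.

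The smallest p belonged to Kcns2 (chr15:34837355-34843407), a silent Kv subunit, in the Shank3-HM striatum. It was at 1324, 1319, 1329, 1502 and 1526 there and at 1251, 1206, 1181, 1166 and 1033 in the WT striatum. All 5 Shank3-HM values lay above all 5 WT values, with a log2 difference of 0.26 ± 0.069 (SE). Its limma p was 0.00148, adjusted p = 0.232, and groups without overlap were seen for 1.86% of all genes. The summed level of the 9 genes listed for parvalbumin interneurons did not overlap either. It was 39825 to 44049 in the Shank3-HM striatum and 36144 to 37915 in WT. Pvalb itself overlapped, at 130 to 190 and 92.0 to 174. The sum does not follow Pvalb between regions. Its median was 36644 in the WT striatum and 19142 in the WT cortex, where the Pvalb means were 132 and 1046. The list holds Tac1, which is also on the spiny projection neuron list. The part of either cell type in the Kcns2 difference was not tested. In Shank3-HT mice Kcns2 was at 1180.3, 1065, 1037, 1281 and 1146, overlapping WT. Kcng4 in the Shank3-HT hippocampus was at 154, 169.7, 154, 165 and 153 against 201, 199, 183, 173 and 186 in WT, all below (0.797% of all genes did not overlap in this comparison), with a log2 difference of -0.24 ± 0.090 (adjusted p = 0.926). Kcnk10, chosen after its values were seen, was the remaining member without overlap, at 123, 141, 188, 131 and 125 in the Shank3-HT striatum and 119, 89.98, 85.4, 116 and 119.5 in WT (0.971% of all genes did not overlap; adjusted p = 0.641).

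Other members with the 2 smallest p values of a comparison are given by their log2 differences from WT, none of which passed the test. Kcnab3 was at 237, 387, 436, 204 and 515 in the Shank3-HT striatum, 0.61 ± 0.21 (SE) above WT on the log2 scale. The last of these is replicate 5, the library with choroid plexus markers, and without it the difference was 0.45. The 3 samples highest for Kcnab3, replicates 2, 3 and 5, were also those with Kcnc2 at 581, 829 and 878. They also held Pvalb, which marks fast-spiking interneurons, at 324, 388 and 445, where the other 2 had Pvalb at 139 and 142. The summed level of the 9 genes listed for parvalbumin interneurons did not follow this order, at 39468, 34123 and 39088 in those 3 samples and 37245 and 41047 in the other 2. The mean log2 level of the list, which includes Pvalb, was 10.5, 10.3 and 10.5 against 10.1 and 10.2. Both the sum and the mean were higher in the WT striatum than in the WT cortex, where Pvalb was higher. Neither therefore measures parvalbumin interneurons alone. The part of these cells in the Kcnab3 values was not tested. In the hippocampus of Shank3-HM mice Kcng4 was -0.25 ± 0.090 and Kcna3 0.58 ± 0.23. In the cortex, Kcnj14 was 0.39 ± 0.17 and Kcna3 -0.31 ± 0.14 in Shank3-HT mice, and Kcnj8 was -0.37 ± 0.15 and Kcnh3 -0.16 ± 0.073 in Shank3-HM mice. Kcnh3 was at 5219, 3813, 5235, 4671 and 5180.0 in those samples, the second being the library with spiny projection neuron markers, and without it the difference was -0.08.

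The precision bounds what could have been missed. For the 38 members at a mean of at least 1000 over all samples, the 95% intervals of the mutant-minus-WT difference had a median half-width of 0.17 for cortex, 0.15 for hippocampus and 0.20 for striatum on the log2 scale, and 36 to 38 of the 38 intervals stayed within 0.5 of zero in each comparison. The widest interval bounds of this group were -0.67 and 1.52, both in the striatum. For low members such as Kcne2 and Kcnq1 the intervals span several log2 units, so their differences were not measurable with these samples.

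**Figure D5:**
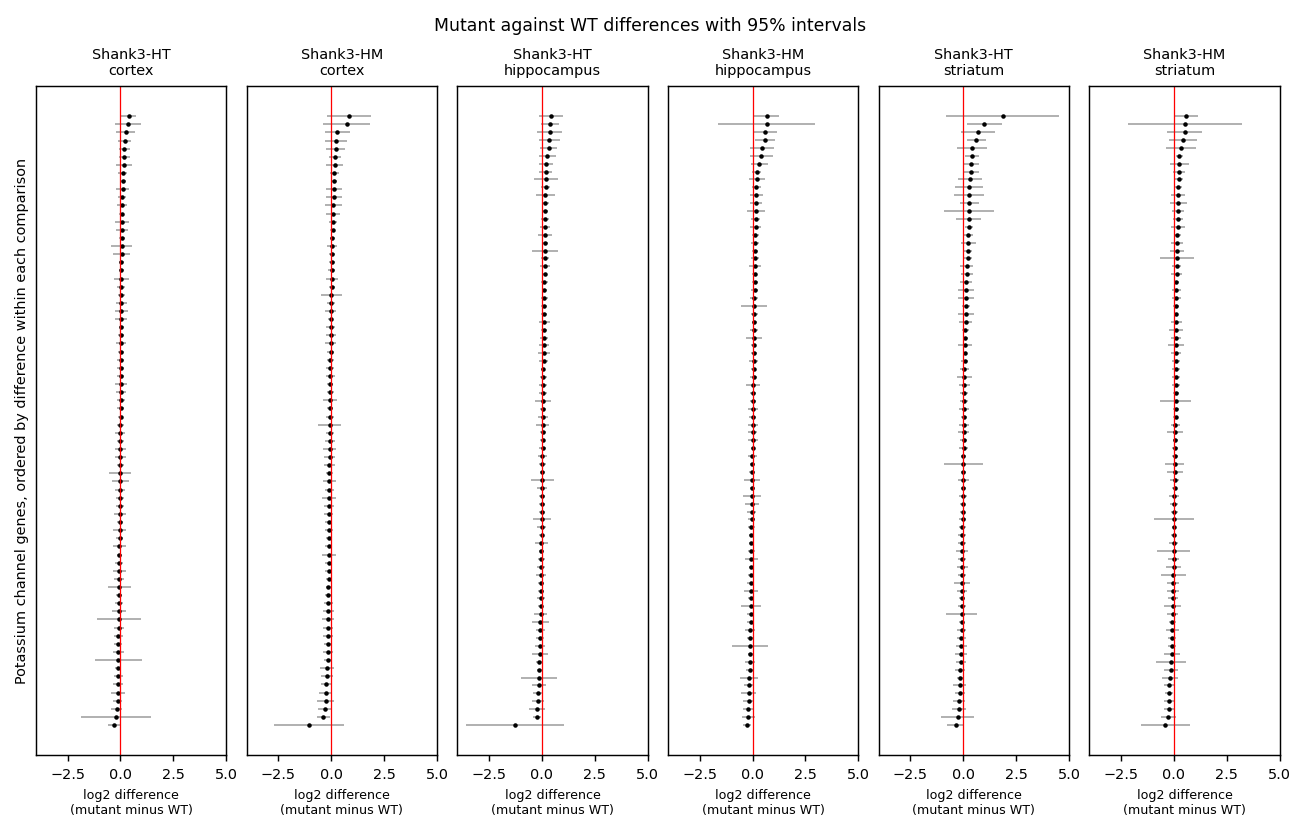
Log2 difference (mutant minus WT; x axis) of each potassium channel gene tested in the 6 comparisons, ordered by size within a panel, with 95% intervals as lines and 0 in red. Most points lie close to 0, and the widest lines belong to low genes such as Kcne2.

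The median difference over the members was 0.00 and -0.07 in the cortex of Shank3-HT and Shank3-HM mice, 0.04 and 0.01 in the hippocampus and 0.03 and 0.08 in the striatum, where the median over all genes was within 0.01 of zero. Members above zero were 39 and 23 of 76, 52 and 43 of 78, and 47 and 53 of 78 in the same order (51.3%, 30.3%, 66.7%, 55.1%, 60.3% and 67.9%, beside 49.6%, 49.1%, 52%, 51.5%, 48% and 50.3% of all genes). Without the 2 libraries that stood apart, the cortex Shank3-HM count was 26 of 76 with a median of -0.02 (50.5% of all genes were above zero), and the striatum Shank3-HT count was 56 of 78 (49.7% of all genes). Leaving out each sample of a comparison in turn gave counts of 32 to 45 and 23 to 27 for cortex, 42 to 53 and 36 to 46 for hippocampus and 39 to 56 and 47 to 56 for striatum. The Shank3-HM hippocampus median turned to -0.01 without WT replicate 1 (37 of 78 above zero) and without WT replicate 4 (36 of 78). The Shank3-HT cortex median lay between -0.01 and 0.01. In cortex Shank3-HM replicate 2, the 13 members higher in striatum were 0.76 (median, log2) above their WT cortex mean and the 30 members higher in cortex were at -0.54, where the medians of the other 4 Shank3-HM samples ran from -0.09 to 0.04 and from -0.12 to 0.03.

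Whether the effect of a genotype differed between regions was tested as the difference of the 2 effects in 1 fit of all 9 groups. No member was called in any of the 6 such comparisons, where 0 genes passed for Shank3-HT and 0%, 0.0517% and 0.069% of all genes for Shank3-HM. Unadjusted p values under 0.05 were seen for 2, 1 and 5 of 79 members for Shank3-HT (cortex against hippocampus, cortex against striatum and hippocampus against striatum) and for 3, 11 and 5 for Shank3-HM. Among all genes the shares were 3.4%, 3.52% and 5.55% for Shank3-HT and 4.47%, 5.41% and 5.34% for Shank3-HM, and 11 members are 13.9%. Without the 2 libraries that stood apart the counts were 3, 1 and 2 for Shank3-HT (3.91%, 3.34% and 5.2% of all genes) and 2, 8 and 7 for Shank3-HM (4.48%, 5.08% and 5.99%). Kcns2 was among them, with a Shank3-HM effect in the cortex minus that in the striatum of -0.33 ± 0.11 (SE; adjusted p = 0.729), and -0.38 ± 0.11 in the hippocampus minus the striatum (adjusted p = 0.51).

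Genes whose products bind or work with potassium channels were taken from a list of 43, of which 41 were in the table. None was called in the 6 genotype comparisons. The smallest adjusted p (limma) was 0.106, for Lrrc55, a gamma subunit of BK channels, in the Shank3-HM striatum, with a log2 difference of 0.57 ± 0.13 (SE). All 5 of its values lay above WT, and 1.86% of all genes did not overlap in this comparison. Between WT regions, 4 of the 41 were called 2-fold between cortex and hippocampus, 9 between cortex and striatum and 9 between hippocampus and striatum, beside 12.3%, 18.7% and 17.3% of all genes, so nothing particular to the list is read from these counts. Akap5, an anchoring protein of channels and receptors, had means of 11896 in the striatum, 3431 in the cortex and 2172 in the hippocampus. Gnb5, a G protein subunit that speeds the closing of GIRK channels with its partners, was at 8013, 2971 and 2448 in the same regions, with Gpr158, which binds this complex, at 9960, 4744 and 3334. Dpp10, an auxiliary subunit of Kv4 channels, was at 1712, 5340 and 1059. Abcc8, the sulfonylurea receptor of ATP-sensitive channels, was at 504, 1392 and 1257.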

How the data were processed

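Samples of 3 regions from WT and both mutant genotypes were analysed (5 per group, 45 samples). The deposited table holds a signal, counts normalized by the authors, from paired reads of a stranded mRNA kit by Salmon 1.1.0, tximport and DESeq2 1.26.0 in R 3.6.2 on GRCm38, as the authors' processing notes list them. The study's methods name later versions of R and of the normalizing package, and which made the table is not given in the sources used here. Whether counting used strand is not given in the sources used here, so Kcnd3, Kcnmb4 and Kcnq1, which antisense genes overlap, are uncertain. Whole reads could not be recovered: 12.7% to 35.7% of low values lay within 5% of a step of whole multiples, where chance gives 10%. Depth is therefore unknown; the sums of 26118607 to 29568983 per sample are normalized totals. The columns written KI were taken as the mice labelled knock-out.

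Values were tested as log2(value + 1) with limma 3.58.1 (lmFit, eBayes with trend) in R 4.3.3. Genes with a mean of at least 10 were tested, per region for genotype (3 genotypes in 1 fit) and in 1 fit of 9 groups for regions and for differences of effects. P values were adjusted by Benjamini-Hochberg over all genes tested, at 0.05, and region calls also needed 2-fold. Fold values in the text are ratios of group means; log2 differences are on the log2(value + 1) scale and understate changes of low genes. The method was tested on simulated data, with changes put into genes drawn from all genes tested. Of Shank3-HM changes of 0.5 on the log2 scale, 59.6%, 53% and 51% were called in cortex, hippocampus and striatum. Of changes of 1, 81.8%, 75.3% and 82.7% were called. Members of the table were matched to GENCODE M21, which gave all 79 a transcript length. Named are the 2 members with the smallest p per genotype comparison, the 5 most different per direction between WT regions, the highest per kb in each family, the 3 most even and those past the level in 1 region only; further genes fill out their family and were chosen after their values were seen. A few members are counted but not reported by name here. The members, families, lists and tests were chosen with earlier results of these data known. Alternatives were the added constant (0.1, 10), filter, trend, quantile normalization, samples in the fit, replicate block and leaving out samples.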

Additional observations from a re-analysis of the deposited data

Results flagged for a closer look

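Among the named members, 67 groups of 5 samples, those each member was compared in, were examined on the log2 scale for a single sample far from the other 4, and 4 had one; chance alone marks about 1 group in 20. In the WT striatum, replicate 5 was far above the others for Kcnc2 (622) and Kcnc4 (483), and the same sample held Slc17a7 at 7801. In the WT hippocampus, replicate 1 was far below the others for Kcnj6 (649), and replicate 5 was the low one for Kcna5 (24.8). That replicate 1 was the lowest of the 5 WT samples for 24 of 78 members, Kcna1, Kcnma1, Kcnn3 and Kcnq3 among them, and the highest for 22 (30.8% and 28.2%, beside 31.3% and 30.9% of all genes).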

How the results depend on the processing

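No log2 difference of a named member changed direction under the alternatives run, but the median over all members did on leaving out 1 sample in the Shank3-HM hippocampus and the Shank3-HT cortex, where it was near zero. The counts of 0 called members for genotype and for differences of effects held under each one run. Without the 2-fold rule, 58, 71 and 66 of 79 members were called between WT cortex and hippocampus, cortex and striatum, and hippocampus and striatum. Under the other alternatives these counts stayed within 1.5 times 23, 43 and 33. Leaving out each WT replicate in turn gave 22 to 26, 41 to 46 and 33 in every case, and 0 members in every genotype comparison. Adjusted p values of Kcns2 in the Shank3-HM striatum ranged from 0.201 to 0.417. The labels tie no samples to 1 mouse, and whether replicate numbers pair them is unresolved. Deviations of the 45 same-numbered pairs within a region correlated at r from -0.119 to 0.15. Across regions of 1 genotype, same-numbered pairs had r from -0.1 to 0.225, with 16 of 45 over 0.1 against 5 of 180 for different numbers, a hint from the data that some numbers mark 1 mouse. With the replicate block, 24 members in place of 23 were called between WT cortex and hippocampus, 43 and 33 in the other WT pairs and 0 between genotypes. Leaving out cortex Shank3-HM replicate 2 and striatum Shank3-HT replicate 5, an alternative chosen after seeing the data, gave 23, 43 and 33. Depth is unknown, so low members such as Kcne2 and Kcnq1 carry the widest error.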

Other observations

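Potassium channel genes outside the named ones also separated the WT regions. Kcns1, a silent subunit, was 2.85-fold higher in cortex than in striatum and 2.38-fold higher than in hippocampus. Kcnmb2, a BK beta subunit, was at 4.34, 19.6, 35.4, 6.72 and 35.2 in the WT striatum and 54.4, 64.1, 139, 80.5 and 69.7 in the cortex. Kcng3 was 2.76-fold higher in striatum than in hippocampus (limma, adjusted p = 5.6e-07), where the silent genes Kcng2, Kcng4 and Kcns3 were lower in striatum than in hippocampus.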
